A study of Homo sapiens with 4 samples.

Results

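The genes described here are 9 regulators of basal and squamous epithelium: TP63, TP73, SFN, SOX2, ZNF750, GRHL1, GRHL2, GRHL3 and OVOL1. They were picked by gene symbol out of 35979 symbols in RNA sequencing of NCI-H1048 cells, which are a line of small cell lung cancer with tuft cell features. Each symbol had 1 row in the tables, and all 9 passed the expression minimum, a mean normalized count of at least 20 over the 4 libraries, which 14940 symbols passed. The cells carried a guide RNA (gRNA) directed at COLCA2 and were labelled COLCA2 knockout (2 libraries, each with a different guide), a gRNA directed at POU2F3 and labelled POU2F3 knockout (1 library), or a non-targeting gRNA and labelled WT (1 library, called the control below). All 4 libraries were made from poly(A) RNA of that line. POU2F3 is the transcription factor that defines tuft cells, and COLCA2 encodes a co-activator that works with it. Whether the cells were clones or a mixed population, and the time after the guides were introduced, are not given in the sources used here.

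p63, the product of TP63, is the transcription factor that maintains the basal layer of stratified and airway epithelium, and SOX2 works beside it in airway progenitors and in squamous lung cancer. ZNF750 acts downstream of p63 in the terminal differentiation of squamous cells. The grainyhead-like factors GRHL1, GRHL2 and GRHL3 and the repressor OVOL1 control epithelial junctions, barrier formation and the exit from the progenitor state. SFN encodes 14-3-3 sigma, an adaptor protein of squamous epithelium, and p73 is a relative of p63 with a role in multiciliated cells.

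Between 21587741 and 29632382 reads were assigned to genes per library. The targeted genes were examined first. POU2F3 had a normalized count of 14602 in the control, 1449 with the POU2F3 guide, and 3677 and 2351 with COLCA2 guides 1 and 2. COLCA2 had 5585, 1393, 3119 and 3541 in the same order. POU2F3 was thus lowest with its own guide. COLCA2 was not: its log2 ratio was -0.84 and -0.66 with COLCA2 guides 1 and 2 and -2.00 with the POU2F3 guide. COLCA2 was thus below the control in all 3 libraries but not lowest with its own guides. Its protein was not measured, so this level alone is no check of the COLCA2 label. Of 13 tuft markers, which include the targeted gene POU2F3, 9 passed the minimum. Of these 8, POU2F3 among them, were at least 2-fold lower than the control in all 3 libraries with a targeting gRNA. That rule was met by 1.5% of all genes past the minimum. LRMP, AVIL and ALOX5 were lower by the most. The median log2 ratio of the 9 markers, POU2F3 included, was -2.23 with the mean of the COLCA2 guides and -3.64 with the POU2F3 guide. TRPM5, CHAT, PTGS1 and ALOX5AP were among the tuft markers under the minimum. Of 12 markers of immune, endothelial and fibroblast cells 8 passed, and the summed normalized count of all 12 was 1472 in the control against 1762 to 2194 in the others. CD3E was at 0 in all 4 libraries and PTPRC was between 8.29 and 16.2. CD68 had 72.6 in the control, 209 and 200 with COLCA2 guides 1 and 2, and 139 with the POU2F3 guide. LYZ had 72.6, 45.6, 48.2 and 61.3 in that order. The collagen gene COL3A1 and the proteoglycan gene LUM were at least 2-fold higher, and the endothelial gene VWF 2-fold lower, in all 3 libraries. Those rules were met by 4.89% and 1.5% of all genes. Over the 8 genes that passed, the log2 ratio had a median of 0.23 with the COLCA2 guides and 0.34 with the POU2F3 guide. The part of such markers in the results below was not tested.

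All ratios to the control share that 1 library, and POU2F3 was targeted in a single library. The spread of the conditions therefore rests on the COLCA2 pair alone, no group but that pair has an SD, and values are read against the spread between the COLCA2 guides, which the sources used here do not describe as separate cultures. A log2 ratio was computed after adding 1 to each normalized count. A fold value is the ratio without that addition, with a 95% exact (Clopper-Pearson) interval that covers counting error only. In bulk RNA, fewer cells of a type and less RNA per cell cannot be told apart.

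Of the 9 regulators, TP63, ZNF750, GRHL3 and OVOL1 were at least 2-fold higher with both COLCA2 guides than in the control. That made 4 of 9, where 5.79% of the 14940 genes met the same rule. The members and the lists below were chosen with earlier results of these data known. A share above that of all genes therefore describes the choice as well as the genes, and is not a test. These genes and SOX2 were at least 2-fold higher with the POU2F3 guide, 5 of 9 against 6.73% of all genes, and 4 of 9 were higher in all 3 libraries, against 4.89%. None was at least 2-fold lower with both COLCA2 guides, a rule met by 2.02% of all genes (302, or 477 and 544 genes with guide 1 or guide 2 alone), and none was 2-fold lower with the POU2F3 guide, met by 3.05%, or in all 3 libraries, met by 1.5%. Over the 9 genes the log2 ratio had a median of 0.89 with the mean of the COLCA2 guides and 1.32 with the POU2F3 guide, and that of all genes was -0.0086 and -0.0037. With edgeR's quasi-likelihood test on the recovered reads, 7 of 9 had an adjusted p under 0.05 with the COLCA2 guides, where 18.9% of all genes did. They were TP63, SFN, ZNF750, GRHL1, GRHL3 and OVOL1, which were higher, and GRHL2, which was lower. With the POU2F3 guide 5 of 9 did, where 12.4% of all genes did: TP63, SOX2, GRHL3 and OVOL1 were higher and GRHL2 was lower, and ZNF750 was not among them. That test takes its spread from the COLCA2 pair alone and compares these libraries, not the conditions.

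**Figure D1:**
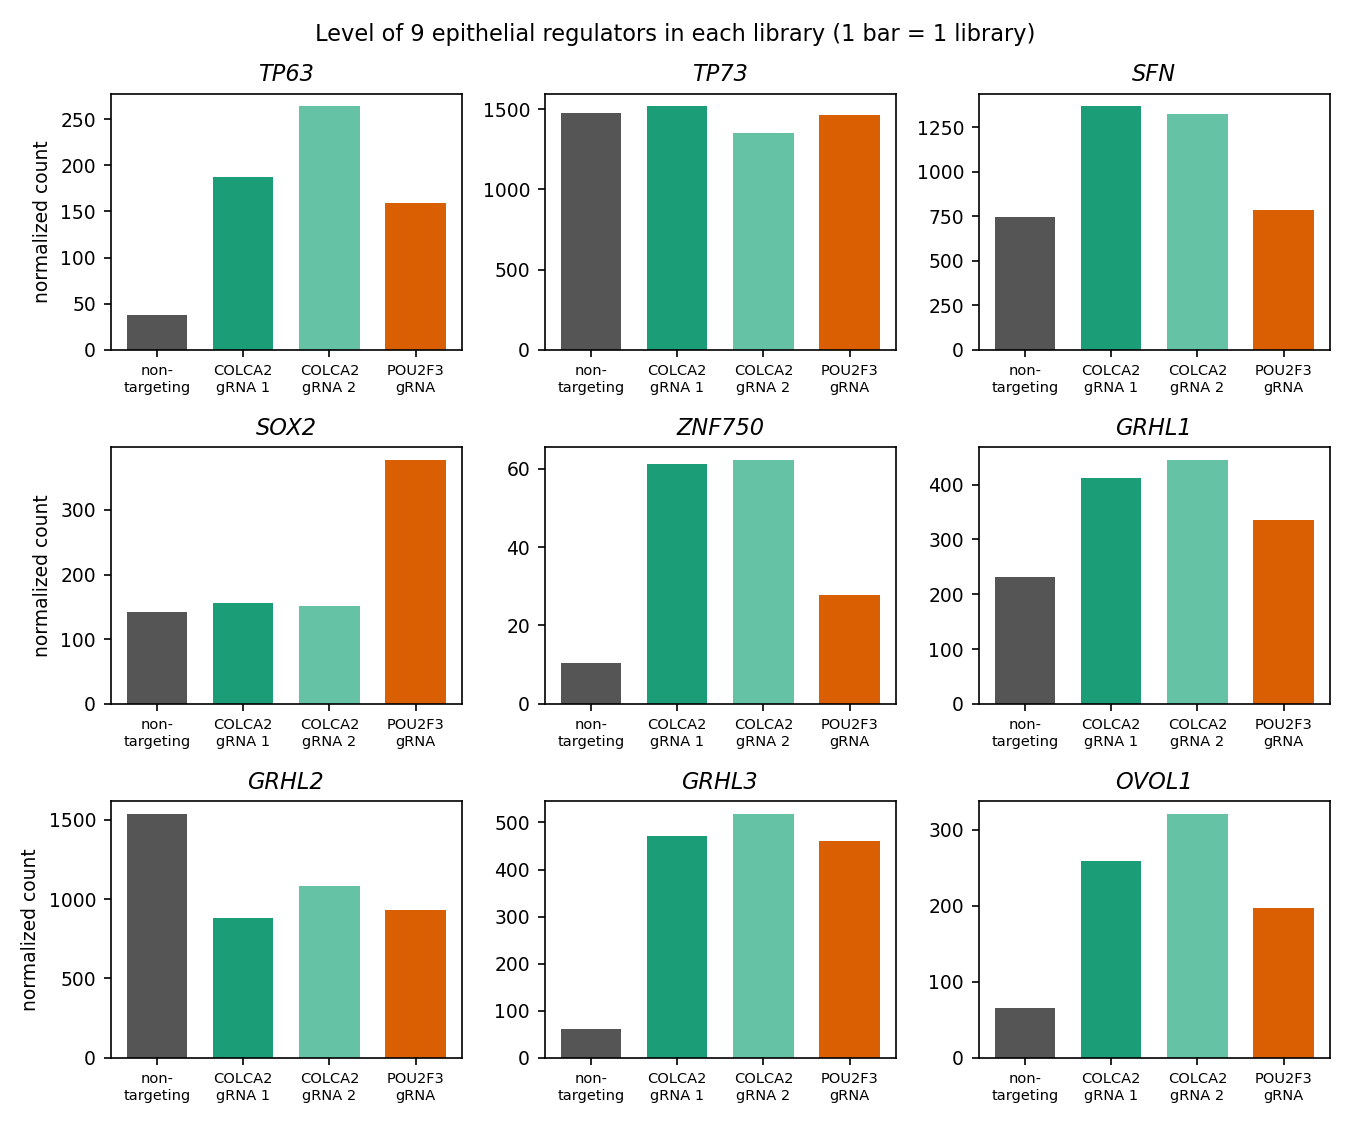
Normalized count (vertical axes, each starting at 0) of the 9 regulators, with 1 bar per library and no error bars because each bar is 1 library. TP63, ZNF750, GRHL1, GRHL3 and OVOL1 are lowest in the non-targeting library (grey), GRHL2 is highest there, SOX2 is high with POU2F3 gRNA (orange), and SFN is high with both COLCA2 guides (green).

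TP63 (ENSG00000073282) spans chromosome 3 from 189631416 to 189897279 on the plus strand (GRCh38, GENCODE release 29). Its normalized count was 38.2 in the control, from 40 reads, 188 with COLCA2 guide 1, 265 with COLCA2 guide 2 and 159 with the POU2F3 guide. The 3 targeted libraries were all above the control, with no overlap. The level was 4.91-fold (interval 3.47 to 7.10) that of the control with COLCA2 guide 1, 6.93-fold (4.93 to 9.96) with guide 2 and 4.18-fold (2.96 to 6.03) with the POU2F3 guide. The mean log2 ratio with the COLCA2 guides was 2.51 ± 0.35 (SD, n = 2), and that with the POU2F3 guide was 2.03. TP63 makes long forms with a transactivation domain from its first promoter and short forms without it, the main forms of basal cells, from a promoter inside the gene. GENCODE lists 12 protein-coding transcripts of TP63 that start at 6 positions spread over 158 kb. The counts are per gene, so they do not tell which form was made. Per kb of the longest transcript TP63 stayed low, at 7.78 normalized counts in the control and 32.5 to 53.9 in the others.

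TP73 (ENSG00000078900), on chromosome 1 from 3652520 to 3736201, did not follow TP63. The libraries gave it normalized counts of 1479 in the control, 1522 and 1355 with COLCA2 guides 1 and 2, and 1461 with the POU2F3 guide. The control value lay within the range of the others. The fold with the POU2F3 guide was 0.988, with an interval of 0.922 to 1.06, and the COLCA2 guides gave 1.03 (0.957 to 1.11) and 0.916 (0.848 to 0.989). An antisense gene, TP73-AS1, shares 633 exon bases (9.36%) with TP73 and had normalized counts of 1769, 1563, 1585 and 1766 in the same order, and reads of both could be mixed if the counting ignored strand. Per kb, TP73 stood at 261 to 293 normalized counts in the 4 libraries, above TP63 in each.

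SFN (ENSG00000175793), a gene of 1 exon on chromosome 1 from 26863138 to 26864457, was higher in the COLCA2 libraries than in the POU2F3 guide library. Normalized counts of SFN were 744 in the control and 784 with the POU2F3 guide, and 1371 and 1323 with COLCA2 guides 1 and 2. The COLCA2 libraries were above both others. The fold was 1.84 (1.69 to 2.02) with COLCA2 guide 1 and 1.78 (1.62 to 1.95) with guide 2, under the 2-fold limit, and 1.05 (0.957 to 1.16) with the POU2F3 guide. The mean log2 ratio with the COLCA2 guides was 0.86 ± 0.036 (SD, n = 2), against 0.076 with the POU2F3 guide. The other 14-3-3 genes, YWHAB, YWHAE, YWHAG, YWHAH, YWHAQ and YWHAZ, all passed the minimum and none was 2-fold apart from the control in any of the 3 libraries, with a median log2 ratio of 0.051 with the COLCA2 guides and 0.020 with the POU2F3 guide. The largest of their log2 ratios was 0.44, that of YWHAH with COLCA2 guide 2.

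SOX2 (ENSG00000181449), also a gene of 1 exon, lies on chromosome 3 from 181711924 to 181714436. SOX2 reached a normalized count of 142 in the control, 156 and 151 with COLCA2 guides 1 and 2, and 378 with the POU2F3 guide. The POU2F3 guide library stood above the others, which lay close together. The fold with the POU2F3 guide was 2.65 (2.20 to 3.22) from 450 reads, and with the COLCA2 guides it was 1.09 (0.865 to 1.38) and 1.06 (0.829 to 1.35). The log2 ratios were 1.40 with the POU2F3 guide and 0.10 ± 0.033 (SD, n = 2) with the COLCA2 guides. SOX2 sits inside the noncoding gene SOX2-OT on the same strand, with which it shares no exon base in GENCODE. Other genes of the members' families differed from this. Of 10 such SOX, OVOL and TFCP2 genes, not all of those families, 5 passed the minimum and none was 2-fold higher. With both COLCA2 guides 2 were 2-fold lower (SOX9 and SOX4), against 2.02% of all genes. With the POU2F3 guide 2 were (SOX9 and OVOL2), against 3.05%. The medians of the 5 genes were -0.93 and -0.97. SOX15 and SOX7, counted in another list, were never 2-fold apart from the control. Their log2 ratios were -0.26, -0.39 and -0.67 for SOX15 and -0.41, -0.064 and -0.18 for SOX7, with COLCA2 guide 1, guide 2 and the POU2F3 guide. SOX9, a tuft and progenitor factor, had a normalized count of 17848 in the control and 6645 to 8463 in the others, and SOX4 had 26921 against 9936 to 13736, which with the POU2F3 guide was a log2 ratio of -0.97. SOX1, SOX3 and SOX21 had at most 1 read in any library.

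ZNF750 (ENSG00000141579), on the minus strand of chromosome 17 from 82829435 to 82840578, had the lowest level per kb of the group in every library, 2.83 in the control and 7.46 to 16.8 in the others. Its level, as a normalized count, was 10.5 in the control, from 11 reads, 61.2 and 62.3 with COLCA2 guides 1 and 2, and 27.7 with the POU2F3 guide, from 33 reads. The COLCA2 guides agreed closely and the POU2F3 guide lay between them and the control. The folds were 5.82 (3.03 to 12.3) and 5.93 (3.06 to 12.6) with the COLCA2 guides and 2.64 (1.30 to 5.78) with the POU2F3 guide, wide intervals because of the few control reads. The log2 ratio with the POU2F3 guide, 1.32, was under 2-fold with a pseudocount of 10, at 0.88. By edgeR ZNF750 had an adjusted p of 0.0150 with the COLCA2 guides and 0.169 with the POU2F3 guide, so that its call with the POU2F3 guide was lost. ZNF750 lies within TBCD, a gene on the other strand with which it shares no exon base.

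**Figure D2:**
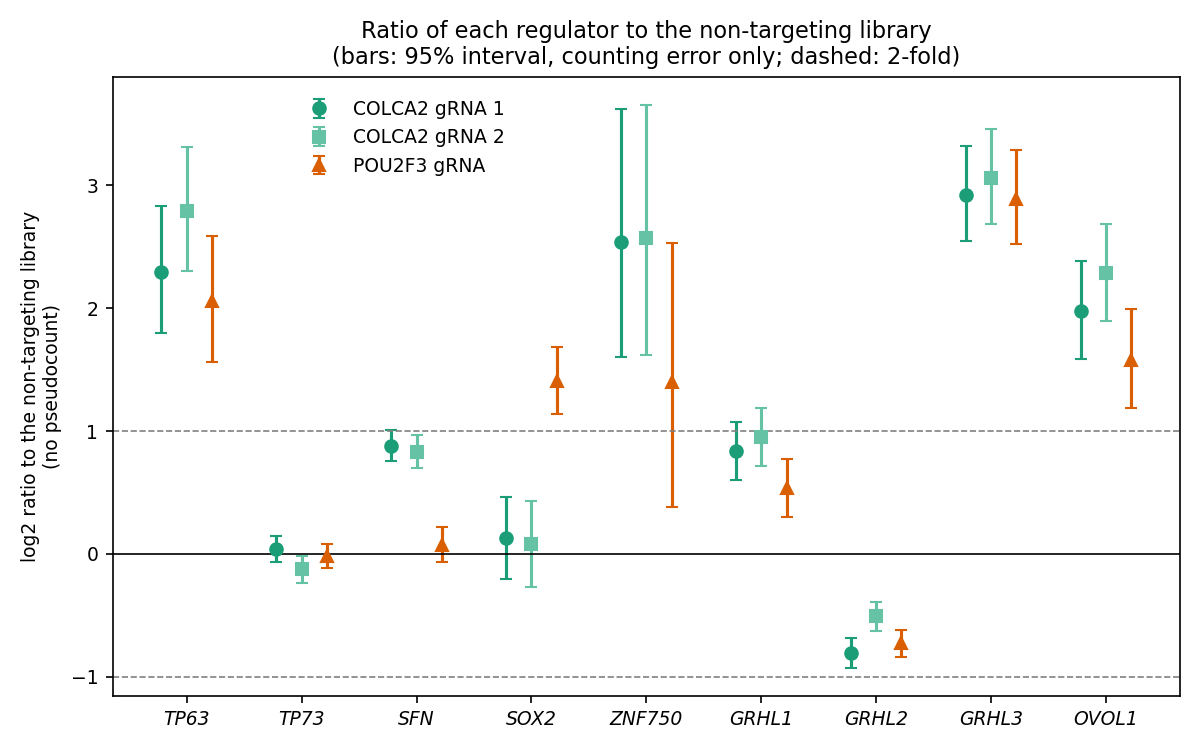
Log2 ratio of each regulator to the non-targeting library without a pseudocount (vertical axis), for COLCA2 gRNA 1 (circles), COLCA2 gRNA 2 (squares) and POU2F3 gRNA (triangles). Bars are 95% exact intervals for counting error and dashed lines mark 2-fold. TP63, ZNF750, GRHL3 and OVOL1 lie above the upper line in all 3 libraries, SOX2 only with POU2F3 gRNA, and GRHL2 lies below 0 in all 3.

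The grainyhead-like genes differed in direction. GRHL3 (ENSG00000158055), a factor of barrier formation and wound closure on chromosome 1 from 24319322 to 24364482, had the largest ratios of the 9 genes in every library. Normalized counts of GRHL3 were 62.1 in the control, 471 and 519 with COLCA2 guides 1 and 2, and 461 with the POU2F3 guide. The 3 targeted libraries lay within a narrow range far above the control. The folds were 7.58 (5.84 to 9.99) and 8.36 (6.43 to 11.0) with the COLCA2 guides and 7.42 (5.73 to 9.75) with the POU2F3 guide, and the mean log2 ratio with the COLCA2 guides was 2.97 ± 0.099 (SD, n = 2). GRHL3 had the smallest adjusted p of the 9 genes by edgeR, 0.000206 with the COLCA2 guides and 0.000412 with the POU2F3 guide.

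GRHL2 (ENSG00000083307), the main grainyhead-like factor of simple epithelium, spans chromosome 8 from 101492432 to 101669726 and was the 1 member lower in all 3 libraries. Its normalized count was 1539 in the control, 881 and 1082 with COLCA2 guides 1 and 2, and 929 with the POU2F3 guide. All 3 targeted libraries were below the control. They held 57.2% (52.6% to 62.2%), 70.3% (64.7% to 76.3%) and 60.4% (55.9% to 65.2%) of its level, which did not reach 2-fold. The mean log2 ratio with the COLCA2 guides was -0.66 ± 0.21 (SD, n = 2), and edgeR gave GRHL2 an adjusted p of 0.0215 with the COLCA2 guides and 0.0355 with the POU2F3 guide.

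GRHL1 (ENSG00000134317), a regulator of desmosomal cadherins in the epidermis, lies on chromosome 2 from 9951693 to 10002277. Normalized counts of GRHL1 were 231 in the control, 413 and 446 with the COLCA2 guides and 335 with the POU2F3 guide. The order of the groups was that of TP63 and OVOL1, at smaller size. The folds were 1.79 (1.52 to 2.10), 1.93 (1.64 to 2.28) and 1.45 (1.23 to 1.71), none of which reached 2-fold, and the edgeR adjusted p was 0.0147 with the COLCA2 guides and 0.13 with the POU2F3 guide.

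Per kb of the longest transcript, GRHL2 made up 82.0% of the summed level of the 3 grainyhead-like genes in the control, and GRHL3 6.04%. With COLCA2 guides 1 and 2 the share of GRHL2 was 41.2% and 44.0% and that of GRHL3 40.1% and 38.5%, and with the POU2F3 guide they were 44.3% and 40.2%. In normalized counts per kb, GRHL2 and GRHL3 stood at 293.8 and 21.6 in the control, 168 and 164 with COLCA2 guide 1, 207 and 181 with guide 2, and 177 and 161 with the POU2F3 guide. The summed level was 358 per kb in the control and 400.0 to 470 in the others. Dividing by all exon bases of each gene gave a GRHL3 share of 5.27% in the control and 35.9% to 37.7% in the others.

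**Figure D3:**
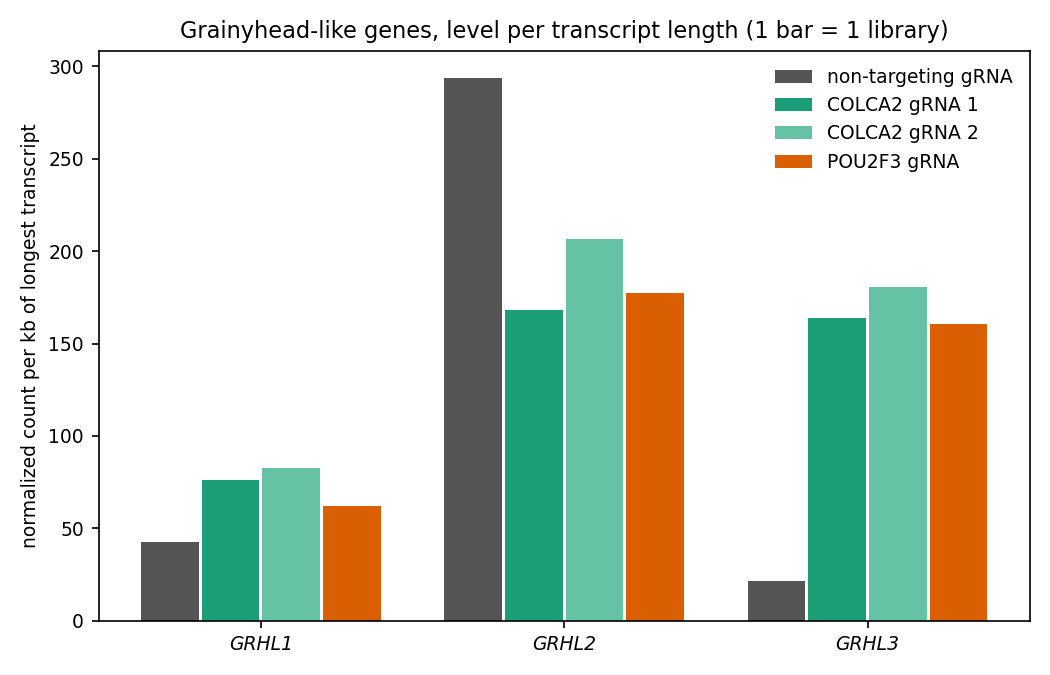
Normalized count per kb of the longest GENCODE transcript (vertical axis, from 0) for GRHL1, GRHL2 and GRHL3, with 1 bar per library. GRHL2 is lower and GRHL3 higher in the 3 targeted libraries, where both stand between 161 and 207 per kb.

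OVOL1 (ENSG00000172818), a zinc finger repressor of keratinocyte progenitors, lies on chromosome 11 from 65787022 to 65797219. OVOL1 reached a normalized count of 65.9 in the control, 259 and 321 with COLCA2 guides 1 and 2, and 197 with the POU2F3 guide. All 3 targeted libraries were above the control. They held 393% (300.2% to 521%), 487% (373% to 644%) and 299% (228% to 397%) of its level, and the mean log2 ratio with the COLCA2 guides was 2.11 ± 0.22 (SD, n = 2). An antisense gene, AP001266.1, covers 27.1% of the exon bases of OVOL1, but its own level was not analysed here, and without strand the reads of both could be mixed. OVOL2, the paralogue that keeps epithelial cells from a mesenchymal state, went the other way, with 596 in the control, 355 and 274 with the COLCA2 guides and 294 with the POU2F3 guide. Per kb, OVOL1 made up 5.36% of the summed level of OVOL1 and OVOL2 in the control and 25.6% to 37.5% in the others. OVOL3 had at most 5 reads in any library.

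The upstream windows of the members are shown here because several members moved together. POU2F3 is known to bind an octamer motif. RefSeq windows (GRCh38.p14) reaching from 250 bases before to 50 after an annotated start were matched by symbol for GRHL1, GRHL3, SFN, SOX2, TP63 and TP73, 9 windows in all, and none was used for GRHL2, OVOL1 and ZNF750. That octamer, ATGCAAAT, was searched on both strands and was in none of the 9 windows, against 1.77% of 35116 windows of all genes. Only these exact letters were searched. Near matches were not counted, such as ttgcaaat in the TP63 window and atgcaaaa in the SOX2 window. The grainyhead palindrome AACCGGTT was also in none of the 9 windows, against 0.134%. TGANTCA, a loose form of the AP-1 motif in which the central base may be any, was in 1, that of SFN. The match read TGATTCA, at position -170 counted from the start. The same loose form was in 7.71% of all windows. The motifs do not overlap in these windows. The 250 bases before the start are printed for GRHL3 and TP63, which were higher with both targets. They are also printed for SOX2 and SFN, whose level in the single POU2F3 guide library differed from that in both COLCA2 libraries. All are on the plus strand and in lower case, with the match of SFN to the loose AP-1 form in capitals.
GRHL3 (chr1:24319107-24319356): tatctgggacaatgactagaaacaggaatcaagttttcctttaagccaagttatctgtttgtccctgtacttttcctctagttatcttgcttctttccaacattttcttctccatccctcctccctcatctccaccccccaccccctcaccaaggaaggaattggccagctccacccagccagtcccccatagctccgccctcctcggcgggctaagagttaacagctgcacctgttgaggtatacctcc
TP63, first start (chr3:189631139-189631388): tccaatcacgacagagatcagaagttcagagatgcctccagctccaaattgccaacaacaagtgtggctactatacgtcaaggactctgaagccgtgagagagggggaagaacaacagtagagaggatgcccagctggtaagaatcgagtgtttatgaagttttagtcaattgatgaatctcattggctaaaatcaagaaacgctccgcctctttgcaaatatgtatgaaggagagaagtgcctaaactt
SOX2 (chr3:181711675-181711924): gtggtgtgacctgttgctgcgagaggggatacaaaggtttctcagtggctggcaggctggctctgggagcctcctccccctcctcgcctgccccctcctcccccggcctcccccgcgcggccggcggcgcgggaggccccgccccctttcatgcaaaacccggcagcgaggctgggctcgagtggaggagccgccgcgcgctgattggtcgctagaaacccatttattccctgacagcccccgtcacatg
SFN (chr1:26862899-26863148): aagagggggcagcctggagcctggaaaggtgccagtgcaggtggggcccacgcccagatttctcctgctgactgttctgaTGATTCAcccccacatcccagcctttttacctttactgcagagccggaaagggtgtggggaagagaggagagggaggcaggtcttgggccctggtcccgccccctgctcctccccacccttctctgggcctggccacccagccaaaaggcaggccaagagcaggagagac
These windows differed in composition, with a GC content of 50.8% for GRHL3, 44.0% for TP63, 68.8% for SOX2 and 62.8% for SFN. The window of TP63 belongs to the long forms. Which start was used in these cells was not measured, and the absence of a motif says only that its letters are not in the window.

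The POU2F3 guide library was also set against the COLCA2 libraries directly, which leaves out the control. SOX2 was at least 2-fold higher with the POU2F3 guide than with both COLCA2 guides, 2.43-fold (2.01 to 2.94) against guide 1 and 2.51-fold (2.06 to 3.08) against guide 2. It was 1 of 9, where 0.442% of all genes met the rule. ZNF750 was at least 2-fold lower, at a fold of 0.453 (0.286 to 0.705) and 0.444 (0.279 to 0.699), where 0.924% of all genes were. With a pseudocount of 10 ZNF750 no longer reached 2-fold. SFN came next, with 0.572 (0.525 to 0.622) and 0.593 (0.543 to 0.647). OVOL1 had log2 differences of -0.39 and -0.70, TP63 of -0.23 and -0.73, and GRHL1 of -0.30 and -0.41 from guide 1 and 2, all lower with the POU2F3 guide. For TP63 the guides themselves were 0.49 apart on the log2 scale, as much as the mean difference of -0.48, so that difference was not larger than the spread between the guides. GRHL3 differed by -0.031 and -0.17, and GRHL2 by 0.076 and -0.22. By edgeR 0 of 9 had an adjusted p under 0.05 in this comparison, where 0.341% of all genes did, and SFN, SOX2 and ZNF750 had an unadjusted p under 0.05, the smallest adjusted p being 0.0648. The COLCA2 guides were never 2-fold apart at any of the 9 genes, a distance seen at 2.22% of all genes.

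Basal epithelial genes were next examined as the tissue program these regulators are known for. Of 26 such genes 21 passed the minimum, and 15 were at least 2-fold higher with both COLCA2 guides, 10 with the POU2F3 guide and 10 in all 3 libraries, where 5.79%, 6.73% and 4.89% of all 14940 genes were. Their median log2 ratio was 2.16 with the COLCA2 guides and 0.96 with the POU2F3 guide. This list was chosen with earlier results of these data known, so its counts are descriptive. Ranked by the smallest of the 3 ratios, KRT17, KRT15 and COL17A1 came first. KRT17, a keratin of basal and injured epithelium, had a normalized count of 467 in the control, 16567 and 19594 with COLCA2 guides 1 and 2, and 9530 with the POU2F3 guide. COL17A1, a collagen of hemidesmosomes, had 39.2, 530, 890 and 488 in that order. KRT15, a keratin of basal progenitors, had 269, 4695, 5658 and 5264. The defining basal keratin KRT5 had 95.5 in the control and 3558, 4079 and 1024 in the others, and its partner KRT14 had 4.77 against 52.9, 85.9 and 99.0. The marker NGFR, the nerve growth factor receptor of airway basal cells, stayed under the minimum at 7.26 to 12.9, and ITGA6 had log2 ratios of 0.12, 0.42 and 0.30. EGFR was the 1 gene of this list at least 2-fold lower in all 3 libraries, as 1.5% of all genes were. It had 6803 in the control and 2615 to 3370 in the others. At 6 of the 21 genes the POU2F3 guide was at least 2-fold lower than both COLCA2 guides, as at 0.924% of all genes, and at none was it 2-fold higher.

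Genes of squamous differentiation, which form the cornified layers, were sparser. Of 34 such genes 16 passed the minimum, and 10 of them were at least 2-fold higher with both COLCA2 guides, 8 with the POU2F3 guide and 8 in all 3, against the same 5.79%, 6.73% and 4.89% of all genes. Their median log2 ratio was 3.07 with the COLCA2 guides and 1.23 with the POU2F3 guide. Earlier results of these data were known when this list was chosen too. KRT13, a keratin of non-cornified squamous epithelium, had a normalized count of 23.9 in the control, 720 and 815 with COLCA2 guides 1 and 2, and 1475 with the POU2F3 guide. PI3, an elastase inhibitor of the cornified envelope, had 4.77, from 5 reads, then 224, 294 and 97.4, and S100A8, an inflammatory calcium-binding protein gene, had 7.64, from 8 reads, then 218, 225 and 94.8. SPRR2A, a small proline-rich envelope protein gene, was the 1 gene at least 2-fold lower in all 3 libraries, at 106 against 22.3 to 42.5. That rule was met by 1.5% of all genes. The differentiation markers IVL, LOR and FLG were under the minimum. IVL had 2.86 in the control, from 3 reads, then 18.7, 24.7 and 7.55, whereas LOR and FLG had at most 1 read in any library. KRT1, of the same list, was among the genes higher in all 3 libraries, with 23.9 in the control, then 295, 452 and 191. Compared with both COLCA2 guides, the POU2F3 guide was at least 2-fold lower at 7 of the 16 genes, as at 0.924% of all genes, and 2-fold higher at none.

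**Figure D4:**
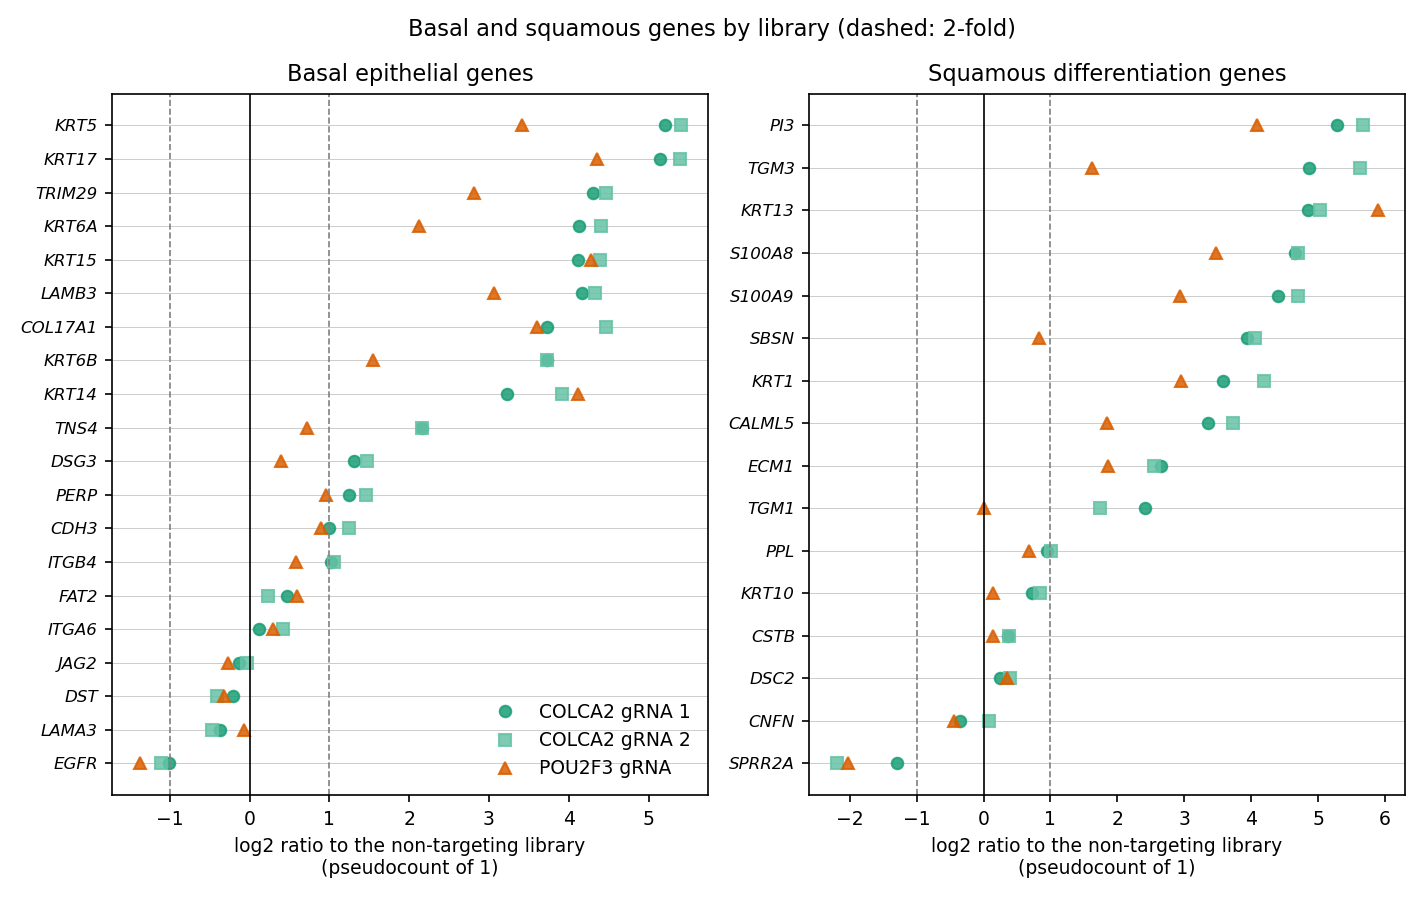
Log2 ratio to the non-targeting library with a pseudocount of 1 (horizontal axes) for 20 of the 21 basal and all 16 squamous differentiation genes past the minimum, with 1 point per library (COLCA2 gRNA 1 circles, COLCA2 gRNA 2 squares, POU2F3 gRNA triangles) and dashed lines at 2-fold. Genes are sorted by the mean of the COLCA2 guides. KRT17 and KRT15 lie far to the right in all 3 libraries, and at KRT5, KRT6A and KRT6B the triangle lies to the left of both COLCA2 points.

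Genes of simple epithelial junctions and polarity that are linked to the grainyhead-like and OVOL factors had medians near 0 as a list. All 22 passed the minimum, and 1 (OVOL2) was 2-fold lower with the POU2F3 guide, against 3.05% of all genes. The median log2 ratio was -0.0063 with the COLCA2 guides and -0.22 with the POU2F3 guide. In all 3 libraries 3 were at least 2-fold higher, against 4.89% of all genes. The 3 were CLDN4, a tight junction claudin (296 in the control and 2354 to 3588 in the others), ELF3, an epithelial ETS factor (424 and 1907 to 2978), and CDH1, E-cadherin (747 and 2126 to 2537). EPCAM was among the others, with log2 ratios of -0.44, -0.23 and -0.69. Of 8 mesenchymal genes that OVOL factors are known to repress, 7 passed. SNAI2 and CDH2 were at least 2-fold higher in all 3 libraries, as 4.89% of all genes were. With the POU2F3 guide VIM was too, at a log2 ratio of 1.45 (6.73% of all genes), and the list medians were 0.59 and 0.56. The log2 ratios were 1.28, 1.30 and 1.62 for SNAI2 and 1.05, 1.15 and 1.35 for CDH2, and no gene of the list was 2-fold lower. The list did not move one way. ZEB1, a known OVOL target, had a normalized count of 19.1 in the control and 28.5 to 51.7 in the others. TWIST1 had 4114 in the control and 2222 to 2396 in the others, and ZEB2 had log2 ratios of -0.80, -0.11 and -0.055. SNAI1 had log2 ratios of 0.19, -0.099 and -0.96.

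Of 18 other factors of squamous epithelium, 17 passed, and 4 were at least 2-fold higher with both COLCA2 guides, against 5.79% of all genes, and 3 with the POU2F3 guide, against 6.73%. PRDM1, which drives terminal differentiation, had 4 reads in the control and a normalized count of 3.82, against 33.2 and 62.3 with COLCA2 guides 1 and 2 and 19.3 with the POU2F3 guide. KLF5, a factor of proliferating basal cells, had log2 ratios of 1.96, 1.95 and 1.93, and ETS2 of 1.54, 1.68 and 1.09. TFAP2A, TFAP2C and KLF4, other epidermal factors, had log2 ratios between -0.60 and 0.33. The median of the list was 0.27 with the COLCA2 guides and 0.29 with the POU2F3 guide. Of 10 markers of ciliated, secretory and other lung epithelial cells, SFTPB, SFTPC and NKX2-1 among them, 7 passed. Only the ciliary factor FOXJ1 was 2-fold higher in any library, at 43.0 in the control and 180 to 226 in the others. It was so in all 3 libraries, as were 4.89% of all genes.

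The genes nearest to each member were sought by the Euclidean distance between the 3 log2 ratios to the control, over 12159 genes with a mean of at least 100. GRHL3 lay nearest to FOSL2, an AP-1 subunit, at a distance of 0.051, whose log2 ratios were 2.95, 3.05 and 2.90. TP63 lay nearest to ICAM1 (0.19), OVOL1 to NCEH1 (0.11) and ZNF750 to TMEM40 (0.21). SFN lay nearest to MUC13 (0.12), GRHL1 to NFKB2 (0.024) and GRHL2 to FRRS1 (0.044). The nearest gene to SOX2, STON1, was 0.37 away, the largest nearest distance of the 9, and TP73 had MLST8 at 0.013. Each distance rests on 4 libraries and describes them only.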

How the data were processed

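Poly(A) RNA of NCI-H1048 cells was sequenced in 4 libraries. The deposited values are a normalized count per gene, a linear signal, per the file headers. Salmon, DESeq2 and hg38 are named in the submitters' processing notes, with no role or version, and the annotation and use of strand are not given in the sources used here. Dividing by the smallest step of a library turned 100% of its values into whole reads (tolerance 0.001 of a read), which may be rounded estimates. The recovered reads per library numbered 24668649 and 21587741 (COLCA2 gRNA 1 and 2), 29632382 (POU2F3 gRNA) and 25435970 (non-targeting gRNA).

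Rows of 1 symbol were summed and genes with a mean of at least 20 kept. Log2 ratios used a pseudocount of 1, and 2-fold differences were counted without a test. edgeR 4.0.16 was run as an alternative on the recovered reads (3 groups, TMM, quasi-likelihood test, Benjamini-Hochberg adjustment at 0.05, 1 residual degree of freedom, all 14940 genes). Alternatives were other scalings, pseudocounts, minimums and thresholds, the highest row per symbol, and each COLCA2 guide left out. Scripts were tested on simulated data. Positions and lengths come from GENCODE 29, matched by gene identifier.

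The members and lists were chosen with earlier results of these data known. All members are described. Of other lists (basal, squamous differentiation, junction, squamous factor, OVOL-repressed, 14-3-3 and other family, tuft, non-epithelial, ciliated and secretory), the 3 largest increases and decreases past 2-fold in all 3 libraries were named, besides marker genes, relatives of the members and, of the 3 nearest genes the rule allowed for each member, the nearest. KRT1, KRT6A, KRT6B, IVL, LOR, FLG, EPCAM, ZEB1, ZEB2, SNAI1, TWIST1, VIM, TFAP2A, TFAP2C and KLF4 were named after their values were seen. Some genes and 1 list are not reported here.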

Additional observations from a re-analysis of the deposited data

Results flagged for a closer look

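The median log2 ratio of the ciliated, secretory and other lung markers was 0.12 and 0.090 with COLCA2 guides 1 and 2 and -0.115 with the POU2F3 guide. The last value was that of SFTPB, from 64 reads against 61 in the control. The median was listed because the libraries of the targets lay on opposite sides of 0. That difference was not tested and rests on 7 genes. None of the 9 regulators met that condition.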

How the results depend on the processing

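No paired analysis was possible because no 2 groups have more than 1 replicate number in common. A count is called changed when it moved by more than 1.5 times. The comparison of POU2F3 gRNA with the COLCA2 guides and the list counts were varied after the data had been seen. For the ratios of the 9 regulators 171 alternative values were computed. Of these 11, of SFN, SOX2, ZNF750 and GRHL3, moved by more than the small SD between the guides. Ratios of the POU2F3 guide to the control were judged by their counting interval instead, and none left it. That interval is wide for ZNF750, whose ratio went from 1.32 to 0.88 with a pseudocount of 10. Some alternatives could not move a value. Leaving out 1 guide shifts a mean by less than that SD, and each member had only 1 row. The number of unmoved values is therefore no measure of stability. A change of sign was looked for only where the main ratio was past 2-fold, and 0 were found. That check says little, since a pseudocount does not turn the sign of a ratio and the scalings shifted ratios only slightly. The number of members higher with both COLCA2 guides stayed between 3 and 6. Scaling to equal totals or by TMM shifted the all-gene median by at most 0.0742 and changed no count of members.

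With a 1.5-fold threshold 1 member (GRHL2) was lower with POU2F3 gRNA and 2 (SFN and ZNF750) were lower than with both COLCA2 guides, and over all genes 1451 were higher and 901 lower with COLCA2 gRNA and 1822 higher and 1149 lower with POU2F3 gRNA. With a 4-fold threshold 2 members (GRHL3 and TP63) and 5 squamous genes were higher with POU2F3 gRNA, 0 differed from the COLCA2 guides in either direction, and over all genes the counts were 346 and 44 for COLCA2 and 365 and 113 for POU2F3. With edgeR 1 member (GRHL2) was lower with each target, 0 differed between the targets in either direction, and 1709 genes were higher and 1122 lower with COLCA2 gRNA. With a minimum of 100, ZNF750 was left out, so 0 members were lower than with the COLCA2 guides, 5 squamous genes were higher with each target, 177 genes were lower with COLCA2 gRNA, and 631 were higher and 233 lower with POU2F3 gRNA. Without a minimum 18 squamous genes were higher with COLCA2 gRNA, and over all genes the counts were 1857 higher and 1028 lower for COLCA2 and 2551 and 1639 for POU2F3, since genes with few reads entered. A pseudocount of 10 left 0 members lower than with the COLCA2 guides. Without COLCA2 gRNA 1 or 2 the genes lower with COLCA2 gRNA ranged from 477 to 544, since 1 guide then had to pass. Few reads limit ZNF750 (11) and TP63 (40) in the non-targeting library.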

Other observations

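The basement membrane laminin genes LAMA3 and LAMB3, named after their values were seen, had unequal ratios. For LAMB3 the normalized count was 137 in the control, 2474 and 2753 with COLCA2 guides 1 and 2, and 1151 with the POU2F3 guide. LAMA3 had 1784, 1382, 1287 and 1706 in that order, and was highest in the control. A pair of squamous differentiation genes, TGM1 and SBSN, were also named afterwards. TGM1, a transglutaminase gene, had 13.4 in the control and 13.4 with the POU2F3 guide, against 75.7 and 47.0 with COLCA2 guides 1 and 2. SBSN, a secreted protein gene of differentiating keratinocytes, had 2.86 and 5.88, from 3 and 7 reads, against 58.1 and 63.5 with the COLCA2 guides. SPRR2A and CNFN, envelope genes of the same list, did not show this, with log2 ratios of -1.30, -2.20 and -2.03 for SPRR2A and -0.35, 0.076 and -0.44 for CNFN with COLCA2 guide 1, guide 2 and the POU2F3 guide.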
